A study of Homo sapiens with 16 samples.

Results

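RNA bound to PABPC1 was measured by RNA immunoprecipitation and sequencing (RIP-seq) in H1299, a human cell line from a lung carcinoma, and 2 peak lists named for the K512R form of PABPC1 were compared with 2 named for wild type (WT), all without arsenite by name. A peak is a genomic stretch in which the peak caller used by the authors saw more reads than it allowed for. These lists are 4 of the 8 that were used here, and the series has 16 samples. The lists were chosen by the names of the files, and the names and the sample record do not give the same conditions.

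By name, the K512R-named lists come from untreated cells that stably express Myc-tagged PABPC1 in which a lysine is replaced by arginine (K512R). By the record, the same 2 lists are the anti-Myc precipitate of cells with Myc-tagged wild-type PABPC1 given 500 µM sodium arsenite (AS). The WT-named lists are untreated cells with Myc-tagged wild-type PABPC1 in both, and the record adds that they are the precipitate. The comparison is thus K512R against WT without arsenite by name, and arsenite against no arsenite in WT precipitates by the record. Which of these holds was not settled, since no paper was at hand and the lists hold neither reads nor sequence that would show genotype or treatment. The names of 6 of the 8 lists conflict with the record, and the 8 samples titled K512R had no list used here. All groups express Myc-PABPC1 from a stable construct in 1 cell line. Nothing in the labels says whether endogenous PABPC1 was removed, whether a line is 1 clone, or whether the replicates are separate cultures, and the spread between them may thus be technical only.

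PABPC1 is the main cytoplasmic poly(A)-binding protein. It coats the poly(A) tail of mRNAs, contacts the translation initiation factor eIF4G through its RNA-binding part and protects mRNAs from decay. Under oxidative stress, such as that caused by arsenite, translation initiation stops and PABPC1 gathers with stalled mRNAs in stress granules. SUMO is a small protein that is joined to lysines of its targets, and an arginine in place of the lysine cannot carry it. By its title, the study asks how SUMO on PABPC1 bears on U-rich mRNAs held in stress granules.

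The K512R-named lists held more peaks, and covered more of the genome, than the WT-named ones. The lists had 24183 and 25111 peaks in the K512R-named pair, against 21979 and 22083 peaks in the WT-named pair. They covered 9.48 and 9.91 Mb in the K512R-named lists and 8.33 and 8.41 Mb in the WT-named lists. The K512R-named lists lay above the WT-named ones in both measures, with no overlap. The means were 24647 ± 656 and 22031 ± 73.5 peaks (SD, n = 2 each), a difference of 11.9%, and 9.70 ± 0.305 and 8.37 ± 0.0545 Mb, a difference of 15.9%. Mean peak width was 393 ± 1.89 bp in the K512R-named lists and 380 ± 1.21 bp in the WT-named lists (SD, n = 2 each), while median width was 190 and 189 bp against 194 and 195 bp. The upper end of the widths thus moved up while the middle moved down. Peaks wider than 2000 bp numbered 619 and 664 in the K512R-named lists and 466 and 484 in the WT-named lists. In an exact 2-sided permutation test of 2 lists against 2, each of these differences had p = 0.333, the smallest p this design can give, so none can pass 0.05. Read depth is unknown, and its part in the longer lists was not tested.

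**Figure D1:**
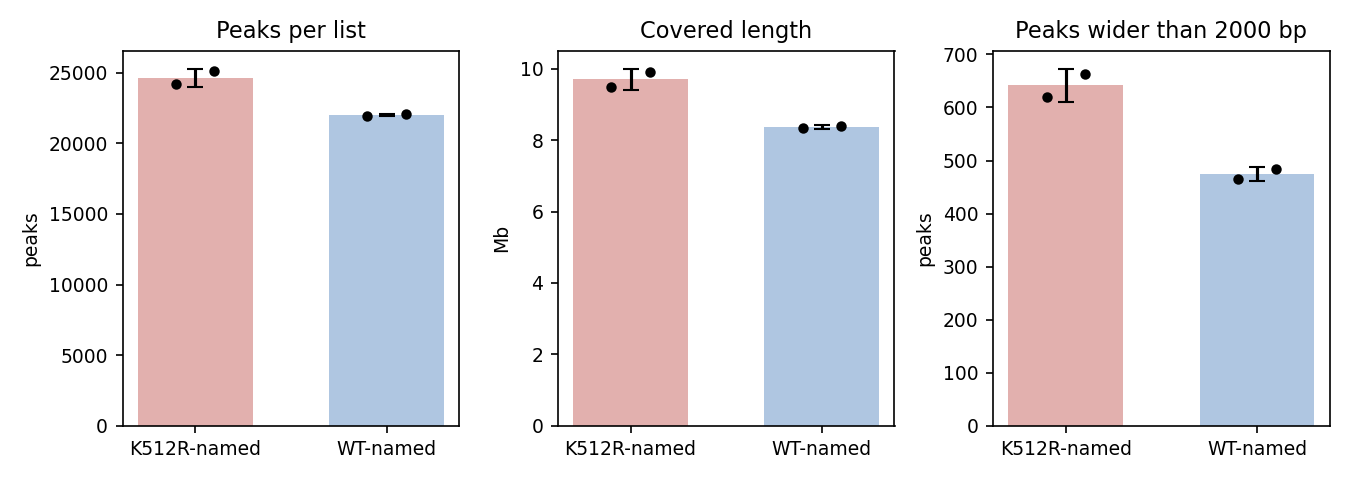
Peaks per list, covered length in Mb and peaks wider than 2000 bp in the 2 K512R-named and the 2 WT-named lists. Points are lists, bars are means and error bars are SD (n = 2 each). The K512R-named lists lie above the WT-named ones in all 3 panels, with 619 and 664 against 466 and 484 wide peaks.

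Regions were formed by joining peaks of all 8 lists wherever they overlapped by 1 bp or more on a strand, and the 4 lists held 31112 of them. Between the lists 1829 regions were gained, meaning that they had a peak in 2 of 2 K512R-named lists and in 0 of 2 WT-named lists, which is 5.88% of the 31112. The reverse held for 598 lost regions, or 1.92%. A further 16479 regions (53.0%) were in all 4 lists and are called shared below. Replicates disagreed often: 7363 regions were in only 1 of the 2 K512R-named lists and 6891 in only 1 of the 2 WT-named lists. Between replicates the Jaccard index (regions in both lists over regions in either) was 0.740 for the K512R-named pair and 0.729 for the WT-named pair. Across the pairs it was between 0.679 and 0.695. Each list was therefore less like the lists of the other pair than like its own replicate. Gained regions were 75.4% of all changed ones. When the 4 lists were cut to the length of the shortest, keeping the 21979 peaks with the best scores, 1066 regions were gained and 973 lost, and the share of gained regions was 52.3%. Equal lengths draw the counts together by construction, so the excess of gained regions cannot be told apart from the greater length of the K512R-named lists. With 1 list left out the rule needs a peak in a single list on that side and the counts went up. Gained regions were 4045 without K512R-named list 1, 3480 without K512R-named list 2, 3049 without WT-named list 1 and 3206 without WT-named list 2. Lost regions were 1242, 1402, 1673 and 1769 with the same lists left out in that order.

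Most changed regions were weakly scored. The score is the authors' own value per peak, its unit is not stated, and it is used here only to rank peaks within a list. For a region held by both lists of a pair, the lower of its 2 score percentiles was taken, 100 being the best of a list. The median of this percentile was 13.6 for gained regions in the K512R-named lists and 13.0 for lost regions in the WT-named lists, against 60.0 and 55.3 for shared regions in the same lists. Of the regions of both K512R-named lists, 35.1% were gained at percentiles up to 10 (723 of 2058) and 0.671% at percentiles above 75 (36 of 5365). Of those of both WT-named lists, 13.8% were lost at percentiles up to 10 (236 of 1711) and 0.856% above 75 (41 of 4788). Among the weakest scores gains were thus the more frequent change, and among the strongest the 2 shares lay close together. The K512R-named lists are longer, and the part of list length in this was not tested. Only 104 gained and 87 lost regions scored above the list median in both lists that held them. Regions on the edge of the rule, with a peak in both lists of one pair and in 1 of the other, were better scored than the changed ones. The median percentile was 22.1 for the 2597 of them with both K512R-named lists and 17.8 for the 1448 with both WT-named lists.

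Gained regions included a set of very wide ones, and few lost regions were as wide. The covered length of a region, averaged over the 2 lists that held it, was over 2000 bp for 75 gained regions and for 5 lost ones. That is 13.0% of the 575 such regions in both K512R-named lists and 1.21% of the 413 in both WT-named lists, beside 8.75% and 3.23% over regions of all widths. The 75 regions made up 31.6% of the covered length of all gained regions, and the widest covered 7473 bp. They lay on 20 chromosomes, 41 on the plus and 34 on the minus strand. Of the 75, 35 were within 10 kb of a shared region on their strand, beside 733 of all 1829 gained regions (40.1%). Most were weakly scored, and 11 of the 75 scored above the list median in both lists. Over all gained regions it was 104 of 1829, a smaller share (5.69%). With lists of equal length the counts were 60 and 7, and with peaks of a score of 50 or more 68 and 5. Without K512R-named list 1 the counts were 131 and 14, without K512R-named list 2 104 and 11, without WT-named list 1 122 and 15, and without WT-named list 2 117 and 12. Between 1000 and 2000 bp, 7.61% of regions were gained and 1.47% lost. Up to 100 bp 9.52% were gained and 3.78% lost, and from 100 to 200 bp 10.3% and 3.15%. These narrow classes held 306 and 782 of the 1829 gained regions.

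**Figure D2:**
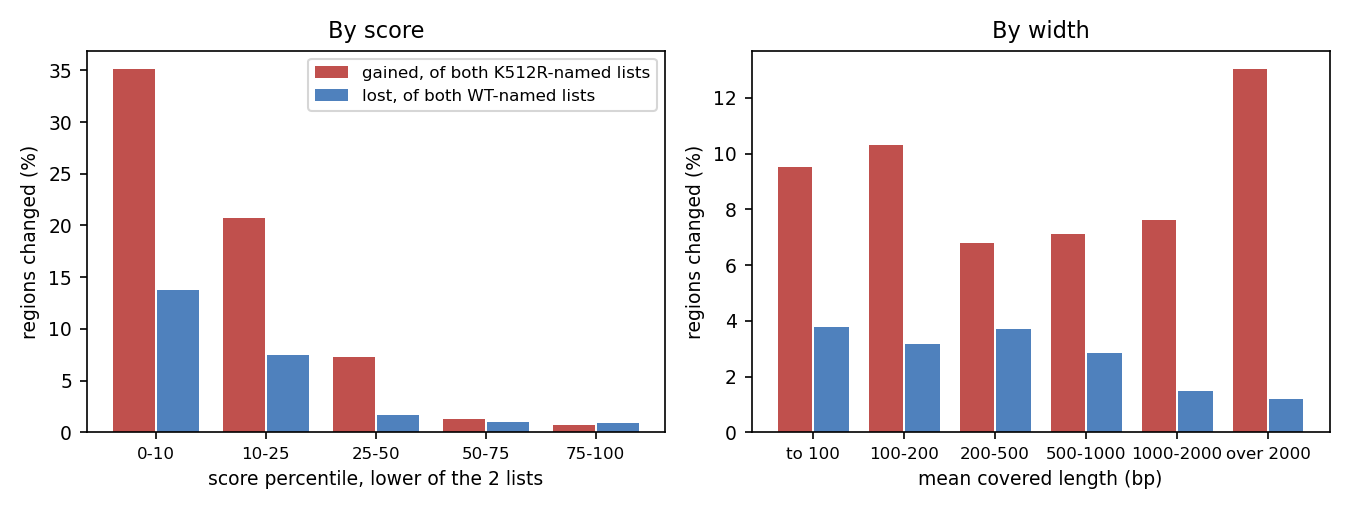
Share of regions changed, in percent, by score percentile (left) and by covered length in bp (right). Red bars are gained regions as a share of those in both K512R-named lists, and blue bars are lost regions as a share of those in both WT-named lists. Gains are 35.1% in the lowest and 0.671% in the highest score class, and 13.0% over 2000 bp, where 1.21% were lost.

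The widest gained regions that also scored above the median of both lists were mostly single peaks with the same ends in both K512R-named lists. The first was on chromosome 20 at 62562818 to 62567384 (plus strand, hg19), where a peak of 4567 bp had scores of 324.91 and 329.07. On chromosome 10 at 61548506 to 61552869 (minus strand) both K512R-named lists had a peak of 4364 bp, with scores of 245.32 and 231.71. On chromosome 22 at 30090741 to 30094589 (plus strand) both had 3849 bp, with scores of 831.73 and 197.13. None of these 3 regions had a peak in any of the other 6 lists, the AS-named ones included. The same held on chromosome 2 at 200789785 to 200792996 (plus strand), with 3212 bp in both lists and scores of 254.35 and 418.3. It also held on chromosome 9 at 123617929 to 123620564 (minus strand), with 2636 bp in both and scores of 183.63 and 172.82. In 2 more regions of this kind the ends differed a little between the K512R-named lists, and no other list had a peak. They were on chromosome 12 at 117151125 to 117155698 (minus strand), covered over 4482 and 4574 bp, and on chromosome 4 at 7032054 to 7034845 (plus strand), covered over 2691 and 2792 bp. The exception was chromosome 3 at 88101177 to 88105594 (minus strand), covered over 4119 and 4086 bp in the K512R-named lists and absent from the WT-named ones. Both WT-AS-named lists held a peak there, of 4153 and 4418 bp, and the K512R-AS-named lists did not.

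Of the 8 widest lost regions above the median of both lists, 7 covered 1134.5 bp or less on average, and the widest, on chromosome 11 at 8707225, covered 3938 and 1775 bp in the WT-named lists. A region on chromosome 12 at 110938753 to 110939930 (minus strand) had no peak in either K512R-named list, against 1091 and 1178 bp in the WT-named lists with scores of 597.93 and 553.75. One on chromosome 3 at 50324768 to 50325545 (plus strand) had none in the K512R-named lists, against 778 and 741 bp in the WT-named lists with scores of 2953.82 and 2763.86. Neither had a peak in any of the 4 AS-named lists, so both were found in the WT-named pair alone. On chromosome 5 at 180663929 to 180664719 and on chromosome 19 at 1876975 to 1877686 (both minus strand), peaks of 791 and 712 bp stood at a score of 3100 in both WT-named lists. Each was absent from the K512R-named lists and present in 1 of the 4 AS-named ones, K512R-AS-named list 1. A region on chromosome 11 at 119004732 to 119005765 (plus strand) covered 985 and 1034 bp in the WT-named lists with scores of 271.62 and 191.94. It was in 3 of the 4 AS-named lists, at scores of 14.02 to 61.69. On chromosome 6 at 43737948 to 43739049 (plus strand) the WT-named lists covered 538 and 1102 bp, and 3 of the 4 AS-named lists had a peak of 900 to 1102 bp at lower scores of 64.18 to 67.39. These lost regions thus ranged from loci seen in no other pair to loci that most other lists held.

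Some lost regions lay beside a gained one on the same strand. A gained region was within 5 kb of 45 of the 598 lost regions (7.53%), against 602 of the 16479 shared ones (3.65%). A lost region was within 5 kb of 48 of the 1829 gained regions (2.62%), against 234 shared ones (1.42%). Gained and lost regions have no compared list in common, while a shared region has lists in common with both. The classes were also not matched for score, so shared regions are not a like background. The 48 pairs of a gained and a lost region lay a median of 603 bp apart, 29 of them within 1 kb, and the gained region was downstream of the lost one in 25. In 6 pairs all 4 peaks scored 3100 or more, the level at which the scores of the best peaks are tied. On chromosome 10 (minus strand) a region at 79397023 to 79398098 covered 886 and 1076 bp in the K512R-named lists, both at a score of 3100, and had no peak in the WT-named ones. At 258 bp from it, the region at 79395961 to 79396764 had no peak in the K512R-named lists and 804 bp in both WT-named lists, also at 3100. Peaks of the same top score thus stood in adjacent places in the pairs. Both K512R-AS-named lists and WT-AS-named list 2 held peaks in both regions, and WT-AS-named list 1 in the lost one alone.

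The other wide pairs had lower or unequal scores. On chromosome 11 (plus strand) the gained region at 8705806 to 8706962 had scores of 1687.65 and 2439.42 in the K512R-named lists and no peak in any other list. At 262 bp from it, the lost region at 8707225 to 8711392 covered 3938 and 1775 bp in the WT-named lists and had a peak at 3100 in all 6 lists other than the K512R-named ones. On chromosome 22 (plus strand) a gained region at 38363632 to 38364271 and a lost one at 38363106 to 38363567 lay 64 bp apart, with scores of 581.81 and 419.47 in the K512R-named lists and 659.76 and 737.36 in the WT-named lists. These neighbours were of like score on both sides. On chromosome 16 (plus strand) the gained region at 30748370 to 30752028 covered 3659 bp in both K512R-named lists, and the lost one at 30755103 to 30755924, 3074 bp away, covered 822 and 806 bp in the WT-named lists. On chromosome 4 (plus strand) a gained region at 184367241 to 184369298 covered 1853 and 2058 bp in the K512R-named lists, and a lost one at 184365788 to 184366222 covered 435 bp in both WT-named lists. On chromosome 15 (minus strand) the gained region at 37391656 to 37392341 covered 686 bp in both K512R-named lists, and the lost one at 37393093 to 37393500 covered 408 bp in both WT-named lists. The gained region on chromosome 4 was in all 4 AS-named lists, at 1997 to 2023 bp, so among the 8 lists only the WT-named ones lacked it.

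Well-scored changed regions had a region of both lists of the other pair within 1 kb more often than weakly scored ones. Among gained regions above the median score in both lists, 25 of 104 (24.0%) had a region of both WT-named lists within 1 kb on the same strand, against 70 of the other 1725 (4.06%). Among lost regions above the median, 25 of 87 (28.7%) had a region of both K512R-named lists within 1 kb, against 54 of the other 511 (10.6%). For shared regions above the median the shares were 8.26% and 8.16%. Such a region and its neighbour are separate regions of the same lists, while a changed region is in neither list of the other pair. The shared regions are thus not a like background at 1 kb. Within 5 kb the shares were 53.8% of gained and 57.5% of lost regions above the median. For shared ones they were 52.1% and 52.4%, so the shares lay apart at 1 kb and close together at 5 kb. About 1 in 4 well-scored changed regions thus had a region of both lists of the other pair within 1 kb. Such a neighbour can be a shared region, which the region's own pair holds too. Over all gained regions, 95 had such a neighbour within 1 kb and 60 had a shared region within 1 kb. For lost regions these counts were 79 and 46. Shared neighbours were not counted apart for the well-scored regions. Where such peaks lie in their transcripts was not analysed here, since no gene annotation of the build was used.

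Some gained regions came in runs, chains in which each lay within 50 kb of the next on the same strand. Most did not: 1183 of the 1829 gained regions and 536 of the 598 lost ones stood alone. Among gained regions 28 runs had 4 or more regions (130 in all), 48 had 3 and 186 had 2. No run of lost regions had more than 2, and 31 had 2. Lost regions are fewer than gained ones, so fewer and shorter runs of them follow in part from their number. With 5 of the gained runs named by their number of regions, the first was on chromosome 19 at 17256207 to 17340024 (plus strand, 83818 bp). The K512R-named lists had a peak in 14 and 16 regions there, against 6 and 6 regions in the WT-named lists, and 7 regions were gained. Covered length was 5805 and 5829 bp in the K512R-named lists and 2078 and 2909 bp in the WT-named lists. The AS-named lists held 1 to 2 of these regions each. A second run of 7 gained regions, on chromosome 12 at 133304618 to 133446420 (minus strand, 141803 bp), had 21 and 20 regions in the K512R-named lists and 10 and 11 in the WT-named lists. The 4 AS-named lists had 5 to 7 regions there.

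Runs of 6 gained regions were on chromosome 1 at 12008033 to 12069783, chromosome 9 at 140622801 to 140707625 and chromosome 4 at 6925100 to 7034845, all on the plus strand. On chromosome 1 the K512R-named lists had 16 and 15 regions, the WT-named lists 9 and 10, and the 4 AS-named lists 8 to 12. On chromosome 9 the counts were 11 and 9 in the K512R-named lists and 4 and 7 in the WT-named lists, where 1 region was also lost. The AS-named lists had 0 or 1 region there. On chromosome 4 both K512R-named lists had 12 regions and both WT-named lists 6, and the run ended in the gained region of 2691 and 2792 bp described above. In these 5 runs, regions of all 4 lists lay between the gained ones (2 to 8 per run). The runs were picked for their number of gained regions, so the higher counts in the K512R-named lists follow largely from that choice. The scores of the gained regions were low to middling, from 14.65 to 242.59. The 5 closest pairs of lost regions spanned 1179 to 3158 bp. They were on chromosome 16 at 15122735 to 15123913 and at 4747978 to 4751135, and on chromosome 11 at 66443031 to 66445219. The others were on chromosome 2 at 187615861 to 187618776 and chromosome 21 at 30502806 to 30505735. No shared region lay inside these pairs. They were picked for their short span, so this cannot be set against the longer gained runs.

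**Figure D3:**
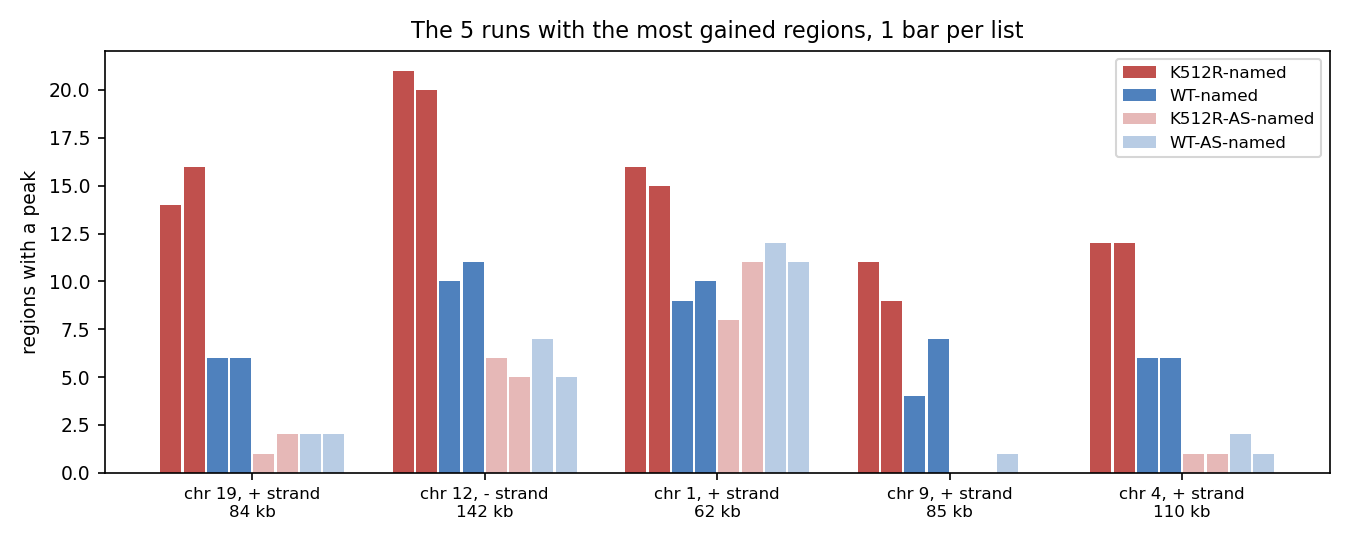
Number of regions with a peak in the 5 runs with the most gained regions, 1 bar per list, by chromosome, strand and span in kb. The K512R-named lists (dark red) have 9 to 21 regions per run and the WT-named lists (dark blue) 4 to 11. The runs were picked for their gained regions, so this difference follows largely from that choice. Pale bars are the AS-named lists, which lie at 0 to 12.

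Changed regions lay farther from shared ones than shared regions lay from each other, but the classes were not matched for score. Shared regions had median percentiles of 60.0 and 55.3 in the K512R-named and WT-named lists, against 13.6 for gained and 13.0 for lost ones. For a region of the other pair within 5 kb, the shares of well-scored changed and well-scored shared regions were close, as given above. On the same strand, 40.1% of gained regions (733 of 1829) and 39.1% of lost regions (234 of 598) had a shared region within 10 kb, against 61.9% of shared regions with another. The median distance was 16175 bp for gained, 18255 bp for lost and 5789 bp for shared regions. Beyond 100 kb of any shared region lay 396 gained (21.7%), 152 lost (25.4%) and 1721 shared ones (10.4%). Within 1 kb of a shared region were 3.28% of gained, 7.69% of lost and 7.19% of shared regions. Which of gained and lost regions lay nearer depended on the lists used. The shares within 10 kb were 37.4% of gained and 45.8% of lost regions without K512R-named list 1, 36.1% and 44.3% without K512R-named list 2, 47.9% and 37.3% without WT-named list 1, and 46.8% and 37.1% without WT-named list 2. With a list left out a single list decides that side, so these shifts can follow in part from the rule. Lists of equal length gave 41.8% and 35.4%. Regions of the 4 lists were further chained over gaps of up to 10 kb, and in chains of 3 or more the place of each region was read along its strand. The most 3' place was held by 24.9% of 939 gained regions, 22.1% of 249 lost regions and 19.3% of 9227 shared ones. The most 5' place was held by 19.2% of gained, 22.9% of lost and 22.4% of shared regions. Gained regions were the only one of these 3 kinds that stood at the 3' end more often than at the 5' end, and this also held with chains of 5 kb (28.6% against 23.4%) and 20 kb (23.3% against 13.3%). Chains are not transcripts, and which genes they belong to was not analysed here.

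**Figure D4:**
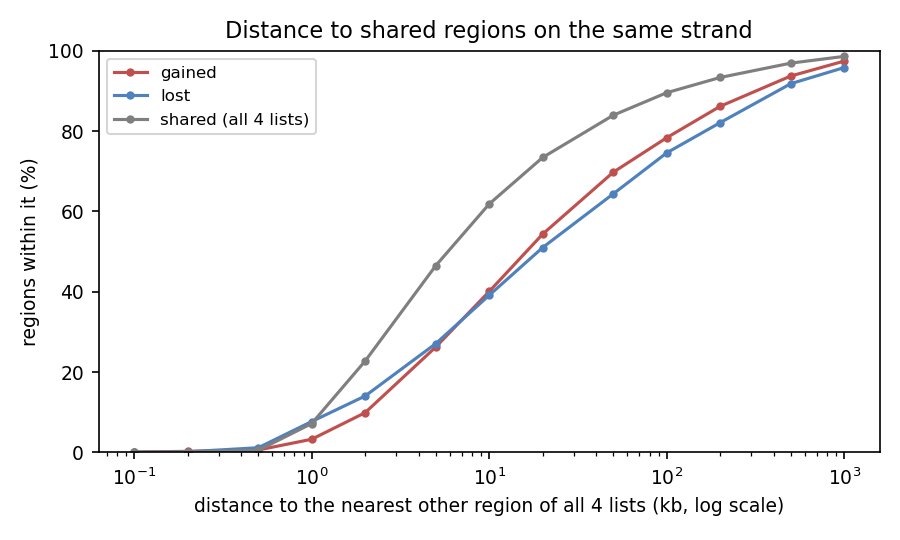
Share of regions, in percent, within a given distance (kb, log scale) of the nearest other shared region on the same strand, for gained, lost and shared regions. The curves of gained and lost regions run below that of shared regions from 2 kb up, with 40.1% and 39.1% against 61.9% at 10 kb.

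The share of gained regions differed little between most chromosomes. Leaving out chromosome Y, which had 59 regions, it lay between 4.54% on chromosome 11 and 9.22% on chromosome 21, beside 5.88% over all. On chromosome 21, 32 of 347 regions were gained (95% Wilson interval 6.61% to 12.7%) and 4 were lost. The share of lost regions lay between 1.15% on chromosome 21 and 3.63% on chromosome 16, beside 1.92% over all. On chromosome 16, 49 of 1349 regions were lost (interval 2.76% to 4.77%) and 89 gained. These chromosomes stand at the ends of a ranking, and the intervals cover counting error only and take regions as independent, which neighbouring regions are not. By strand, 54.6% of gained, 52.2% of lost and 51.1% of shared regions were on the plus strand.

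The 4 AS-named lists were not used to call changes and give a separate view of the same regions. They are 2 K512R-AS-named lists, which the record calls input of WT cells with arsenite, and 2 WT-AS-named lists, which it calls input of WT cells without. Of the gained regions, 24.4% and 26.0% had a peak in the K512R-AS-named lists, against 26.9% and 29.1% in the WT-AS-named lists. Of the lost regions, 38.5% and 41.6% had one in the K512R-AS-named lists, against 36.0% and 40.3% in the WT-AS-named lists. Shared regions stood at 76.9% and 79.1% in the K512R-AS-named lists and at 77.5% and 79.2% in the WT-AS-named lists. Gained regions were thus somewhat less frequent in the K512R-AS-named lists than in the WT-AS-named ones, opposite to the way they were chosen, and the lost regions overlapped between the pairs. Both differed far less between the AS-named pairs than either did from shared regions. Averaged over the 4 AS-named lists the share was 26.6% for gained and 39.1% for lost regions, and this order turned when a WT-named list was left out. It was 32.7% for gained and 28.8% for lost regions without WT-named list 1, and 34.1% and 28.6% without WT-named list 2. Without K512R-named list 1 the shares were 23.6% and 46.1%, and without K512R-named list 2 24.0% and 47.1%. With a list left out a single list decides that side, so this turn can follow in part from the rule. In none of the 4 AS-named lists were 1060 gained (58.0%), 240 lost (40.1%) and 1875 shared regions (11.4%). Gained regions score lower than shared ones, so regions of like score were also set side by side. Among those at percentiles up to 10 in the K512R-named lists, 62.8% of gained and 26.4% of shared ones were in no AS-named list. By rule, shared regions were in all 4 compared lists and gained ones in 2. A higher share of shared regions in further lists follows in part from that rule, at like score or width too. Of the 75 gained regions over 2000 bp, 65 (86.7%) were in no AS-named list, against 139 of 411 shared regions of that width (33.8%). The AS-named lists hold fewer such peaks in general, between 211 and 270 each.

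**Figure D5:**
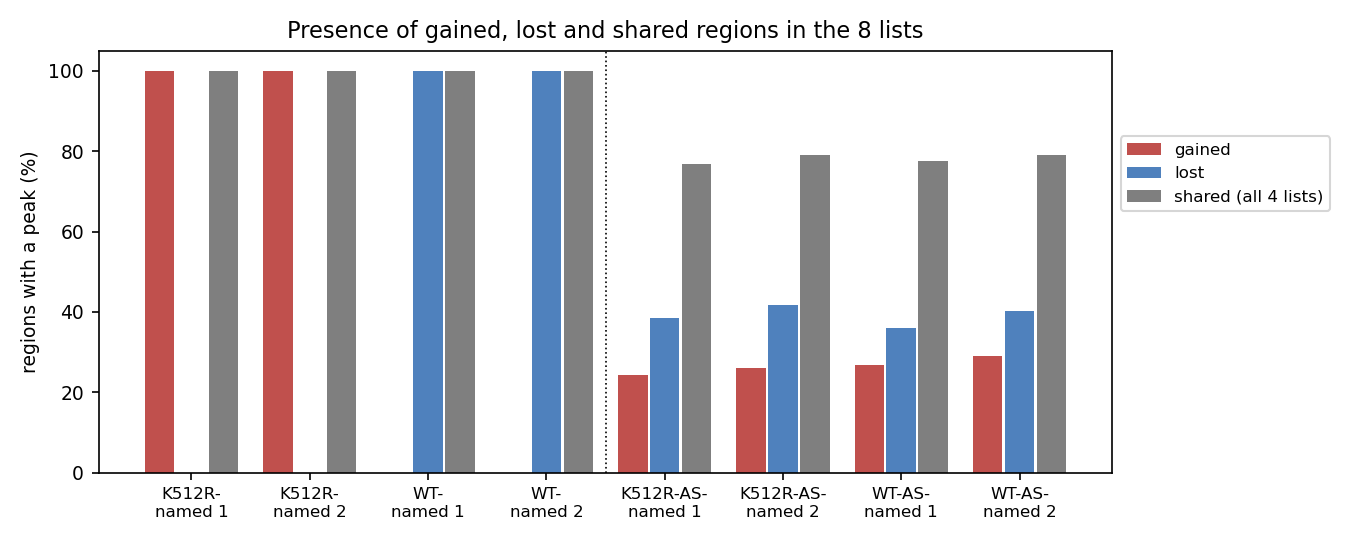
Share of gained, lost and shared regions, in percent, with a peak in each of the 8 lists. The 4 lists left of the dotted line define the classes and stand at 0 or 100%, while in the 4 AS-named lists on the right gained regions reach 24.4% to 29.1%, lost ones 36.0% to 41.6% and shared ones 76.9% to 79.2%.

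Regions that changed without arsenite by name changed in either direction between the AS-named pairs, which share no list with the others. Of the 1829 gained regions, 24 (1.31%) were in both K512R-AS-named lists and in neither WT-AS-named list, and 66 (3.61%) showed the reverse. Over all regions of both K512R-named lists these shares were 2.14% and 2.62%. Of the 598 lost regions, 18 (3.01%) were in both WT-AS-named lists and in neither K512R-AS-named list, and 24 (4.01%) showed the reverse, against 2.59% and 2.33% over all regions of both WT-named lists. Changes in the opposite direction were thus the more numerous for both gained and lost regions. Regions in no AS-named list cannot change between the AS-named pairs. They were 58.0% of gained regions, against 18.8% of all regions of both K512R-named lists. Among lost regions they were 40.1%, against 13.4% of all regions of both WT-named lists. The shares of changes over all regions are therefore not a like background, and no order against them is drawn. The widest of the 24 gained in both comparisons was on chromosome 15 at 58006734 to 58009755 (plus strand), covered over 3015 and 2296 bp in the K512R-named lists and 3022 and 2913 bp in the K512R-AS-named lists, with no peak in the WT-named or WT-AS-named ones. On chromosome 12 at 133287668 to 133288215 (plus strand) the peak was at a score of 3100 in all 4 K512R-named and K512R-AS-named lists, covering 452 to 548 bp, and absent from the other 4. The next were chromosome 12 at 7024371 to 7025081 (plus strand), chromosome 1 at 3552083 to 3552793 (minus strand) and chromosome 2 at 208442229 to 208442789 (plus strand), at scores of 13.85 to 116.35. Of these 5 regions, the one on chromosome 12 at 133287668 had the top score and the others had low to middling ones.

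Among the 18 regions lost in both, the widest was on chromosome 19 at 48955965 to 48957164 (plus strand), a peak of 1200 bp in all 4 WT-named and WT-AS-named lists at scores of 25.05 to 50.81. On chromosome 12 at 58026555 to 58027022 (minus strand) the same 4 lists had a peak of 468 bp, at scores of 307.56 and 614.76 in the WT-named and 280.52 and 233.04 in the WT-AS-named lists. Neither had a peak in any K512R-named or K512R-AS-named list. The others named by width were chromosome 7 at 36894063 to 36895356 (minus strand), chromosome 17 at 8197751 to 8198661 (minus strand) and chromosome 20 at 62327131 to 62327599 (plus strand). By name these are regions of WT cells in either treatment, and by the record they are regions of untreated WT cells in precipitate and input.

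Regions shared by all 4 lists were mostly covered alike. Of the 16355 shared regions with 1 peak in each of the 4 lists, 13437 (82.2%) had the same start and end in all of them. Summed over the 16479 shared regions, covered length was 6.59 and 6.62 Mb in the K512R-named lists and 6.51 and 6.55 Mb in the WT-named lists. In the regions that were not shared it was 2.89 and 3.29 Mb in the K512R-named lists and 1.82 and 1.86 Mb in the WT-named lists. Most of the difference in covered length thus lay in regions that at least 1 of the 4 lists lacked. Covered length was longer by at least 20 bp in both K512R-named lists than in either WT-named list in 272 shared regions (1.65%), and shorter in 200 (1.21%). With a difference of at least 100 bp the counts were 108 and 70. With lists of equal length they were 244 and 189. Without WT-named list 2 they were 740 longer and 386 shorter, and without K512R-named list 2 the excess turned, with 489 longer and 603 shorter. Without K512R-named list 1 they were 567 and 481, and without WT-named list 1 612 and 467.

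The largest such difference was on chromosome 22 at 46631030 to 46638314 (plus strand), covered over 7183 and 7285 bp in the K512R-named lists and 810 and 1892 bp in the WT-named lists. Next came chromosome 3 at 51428699 to 51435336 (plus strand), with 6583 and 6638 bp in the K512R-named lists and 4206 and 4280 bp in the WT-named lists. On chromosome X at 37586889 to 37590973 (plus strand) the K512R-named lists covered 4085 and 3979 bp and the WT-named lists 1842 and 2078 bp. These regions were nearly fully covered in the K512R-named lists and in part in the WT-named ones. The others were chromosome 22 at 38169790 to 38172517 (plus strand, 2625 and 2728 bp against 988 and 1001 bp) and chromosome 11 at 116714121 to 116716345 (minus strand, 2212 and 2225 bp against 907 and 909 bp). In the other direction, chromosome 12 at 56428355 to 56432207 (plus strand) was covered over 2475 and 2516 bp in the K512R-named lists and 3853 and 3851 bp in the WT-named lists. Chromosome 17 at 39669998 to 39671944 (minus strand) had 1283 and 1304 bp in the K512R-named lists and 1947 and 1921 bp in the WT-named lists. Chromosome 7 at 8152815 to 8153674 (minus strand) had 292 and 272 bp in the K512R-named lists and 847 and 859 bp in the WT-named lists. The remaining ones were chromosome 19 at 55997028 to 55998935 (plus strand) and chromosome 12 at 54574182 to 54576691 (minus strand).

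The regions whose covered length differed without arsenite by name were then compared between the AS-named pairs. Of the 272 longer regions, 155 were in all 8 lists, and among these the K512R-AS-named lists covered at least 20 bp more than both WT-AS-named lists in 11 (7.10%) and at least 20 bp less in 33 (21.3%). Of the 200 shorter regions, 122 were in all 8 lists, with 7 (5.74%) longer and 22 (18.0%) shorter in the K512R-AS-named lists. Over all 10872 regions of the 8 lists the counts were 104 longer (0.957%) and 269 shorter (2.47%). The same bound of 20 bp chose the longer and shorter regions and was used again here. Regions of like width were not set side by side, so the shares over all regions are not a like background. Regions of both kinds were thus more often shorter than longer in the K512R-AS-named lists, as regions of all 8 lists were in general.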

How the data were processed

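The deposited files are 8 peak lists, 1 per sample, in which the authors gave each peak a position, a strand and a score. Peak names begin with MACS. Per the submitters' processing notes, cutadapt 1.9.3, HISAT2 2.0.4 and the build hg19 were used. Not given in the sources used here are the MACS version, its control library and threshold, the strand rule and the unit of the score. In the deposited files start and end, the other values used, are positions in bp, printed here counted from 1. No read counts were given, so depth is unknown and precision rests on the number of lists.

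Groups follow the sample titles, and the lists compared were chosen by file name. Peaks overlapping by 1 bp or more on the same strand were joined over all 8 lists. The calling rule was run on simulated lists in which gained and lost regions were set in advance. This checks the code and not how often false calls arise. Distances run from edge to edge. Exact permutation tests were used for values per list, and counts of regions carry no test. Members, lists, rules and settings were chosen with earlier results of these data known, and the bound of 2000 bp and the neighbours within 1 kb after these lists had been explored.

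Regions were named by rule: the 8 widest gained and lost regions above the list median score, 5 runs per direction, 5 shared regions per direction with the largest difference in covered length, 6 pairs of a gained and a lost region within 5 kb, and the 5 widest regions changed in both comparisons. Loci on chromosome 8 were passed over. No hg19 genome or annotation was at hand, so no gene was named, no sequence printed and no marker of H1299 cells checked. Analyses ran in Python 3.11.15 with pandas 2.3.3, numpy 2.4.6 and scipy 1.17.1, and plots in matplotlib 3.10.9.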

Additional observations from a re-analysis of the deposited data

Results flagged for a closer look

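For 4 measures of peak width, both K512R-named lists lay on one side of both WT-named lists, and both K512R-AS-named lists lay on the opposite side of both WT-AS-named lists. Mean width was higher by 13.6 bp in the K512R-named lists, while the difference between the AS-named pairs was -5.78 bp. Median width differed by -5 bp without arsenite by name and by 2.5 bp with it. The share of peaks over 1000 bp differed by 0.717 percentage points without and -0.473 with arsenite by name. The number of peaks over 2000 bp per list differed by 166.5 without and -45 with arsenite by name, with means of 641.5 and 475 in the K512R-named and WT-named lists and 220.5 and 265.5 in the K512R-AS-named and WT-AS-named lists (n = 2 each). The difference between these differences was not tested.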

How the results depend on the processing

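With 2 lists a group no count of changed regions can be tested, and depth is unknown. Joining only the 4 lists, asking for an overlap of 50 bp, joining gaps of up to 100 bp or ignoring strand left gained regions at 1807 to 1830 and lost ones at 591 to 600. Equal list lengths gave 1066 gained and 973 lost regions, 52.3% of them gained. A score of 50 or more gave 1205 gained and 440 lost (73.3% gained), and a peak in 1 or more of 2 lists against none gave 5696 and 2844 (66.7%). With 1 list left out, gained regions ranged from 3049 to 4045, lost ones from 1242 to 1769 and the share gained from 64.4% to 76.5%, since a single list then decides one side. Gained regions were the more numerous in every alternative run. With 1 list left out, 36.1% to 47.9% of gained and 37.1% to 45.8% of lost regions lay within 10 kb of a shared one, and 23.6% to 34.1% and 28.6% to 47.1% had a peak in the AS-named lists on average, with the order of gained and lost turning in both. With 5 or 50 kb in place of 10 kb as the distance to a shared region, 26.2% and 69.8% of gained and 27.1% and 64.4% of lost regions lay within it. In peaks of a score of 50 or more the K512R-named lists exceeded the WT-named ones by 1685 peaks in place of 2616. Counts of regions come from no test, so the replicate number was not used as a block for them. For values per list, a replicate block, added after seeing the data, leaves the mean differences at 2616 peaks, 1.33 Mb and 13.6 bp by construction. Within replicate numbers 1 and 2 the K512R-named list had 2204 and 3028 more peaks (exact 2-sided sign test, p = 0.5, the smallest that 2 pairs can give). Lists of the same replicate number had Jaccard indices of 0.693 and 0.694 across the pairs, and lists of different number 0.695 and 0.679.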
